A study of Homo sapiens with 2 samples.

Results

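The platelet-derived growth factor (PDGF) family comprises the receptor genes PDGFRA and PDGFRB, the receptor-like gene PDGFRL and the ligand genes PDGFA, PDGFB, PDGFC and PDGFD, which are 7 of the 18417 genes measured here. They were chosen by family membership together with the log2 difference between the coatings, which had been seen, so the differences of these 7 genes are a description and support nothing by themselves. Expression was compared between HT1080 cells, an established human fibrosarcoma line, kept for 24 h in a well coated with BSA (the control) and HT1080 cells kept for 24 h in a well coated with rLCC111 at 1 µg per well. rLCC111 is a recombinant trimer of the coiled-coil region of mouse laminin alpha 1, beta 1 and gamma 1 chains, made in human embryonic kidney cells, and the question was which transcripts differ when cells meet this anti-adhesive fragment. Each coating has 1 array (GeneChip Human Gene 1.0 ST) of total RNA, so no difference has a replicate check and no p-value is given. In RNA from a whole well, more cells that express a gene and more RNA per cell cannot be told apart. The line was routinely cultured with fetal calf serum, which carries PDGF of its own, but no source used here gives the medium of the coated wells. The arrays measured only RNA.

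PDGFs are secreted dimers that pair their receptors at the cell surface and switch on the receptors' tyrosine kinase. PDGFRA binds the A, B and C chains, while PDGFRB binds the B and D chains, and both drive growth, survival and migration of mesenchymal cells. PDGFRB is best known in pericytes, smooth muscle cells and fibroblasts. PDGFRL resembles the outer part of the receptors and lacks a kinase.

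A gene is given here by the log2 expression level of its sequence on the array, and its difference is the level on rLCC111 minus that on BSA, so that a difference of 1 is a 2-fold higher level. Olfactory and other sensory receptor genes, 379 in number, stand for genes that a fibrosarcoma line is not known to express, and 95% of them had a mean level below 6.62, which is used as the limit of silent genes. The SD of their differences was 0.18 around a median of 0.00, and it shows the scatter of genes taken as silent. The median level over all 33297 sequences was 7.04 on BSA and 7.12 on rLCC111. Of all 18417 genes, 12700 had an array above the limit. Among mesenchymal markers VIM was at 13.05 on BSA and 12.98 on rLCC111 and FN1 at 12.80 and 13.29, but only 6 of 11 such markers were above the limit, and DCN, LUM, THY1, FAP and S100A4 were below it on both arrays. Of 7 epithelial markers, CDH1, EPCAM, GRHL2 and CLDN4 were below the limit on both arrays, while KRT8, KRT18 and KRT19 were above it. Of 9 endothelial markers 7 were below the limit on both arrays, PECAM1, CDH5 and VWF among them, and TIE1 and CLDN5 were above it.

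Among the 7 PDGF genes, PDGFRB stood apart from the other 6. The PDGFRB level was 7.25 on BSA against 8.59 on rLCC111, which gives a difference of 1.35 and a fold of 2.54. Its level was above the limit of silent genes on both arrays, by 0.63 on BSA and by 1.97 on rLCC111. With the limit at the 99th percentile of the sensory receptor genes, 7.58, the BSA level of PDGFRB lay below it and the rLCC111 level above it, so the size of the fold rests on a dim signal on BSA. Of all 18417 genes, 16 had a larger difference. Among 1251 other genes with a mean level within 0.25 of that of PDGFRB, the differences had an SD of 0.24, and 95% of them lay between -0.45 and 0.51. Past 2-fold, 1 of these genes lay on the higher side and 3 on the lower.

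PDGFRA, the other receptor with a kinase, was listed at 5.80 on both arrays, a difference of 0.00 and 0.82 below the limit of silent genes. Its pair of values was equal to every deposited digit, as were those of 1325 genes, or 7.19% of all. A level in the range of silent genes gives no usable fold, so the arrays do not show whether PDGFRA differed between the coatings. PDGFRL had a level of 7.59 on BSA and of 7.47 on rLCC111, with a difference of -0.11, inside the range of 95% of genes of like level. Against the 99th percentile limit of 7.58, its BSA level lay barely above and its rLCC111 level below, so PDGFRL was dim too. The receptor genes thus differ in what they show. PDGFRB was higher on rLCC111 by more than 2-fold, PDGFRL was dim with little difference, and PDGFRA lay in the range of silent genes.

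Among the ligands, PDGFA had a level of 9.07 on BSA and of 9.30 on rLCC111, with a difference of 0.24, or 1.18-fold. PDGFC, a ligand secreted in a latent form, was at 9.95 and 10.08, a difference of 0.13 and a fold of 1.09. Both were more than 2 log2 units above the limit of silent genes on either array. The genes of the ligands of PDGFRB were dimmer. PDGFB had levels of 6.99 (BSA) and 6.86 (rLCC111), no more than 0.37 above the limit, and a difference of -0.13. PDGFD was at 5.66 and 5.41, a difference of -0.25, below the limit on both arrays. As for PDGFRA, such a level gives no usable fold, so the arrays do not show whether PDGFD differed. All 4 ligand differences lay inside the range that holds 95% of genes of like level, which ran from -0.40 to 0.47 for PDGFA, -0.41 to 0.39 for PDGFC, -0.33 to 0.43 for PDGFB and -0.31 to 0.39 for PDGFD. An array level depends on the probes of its sequence, so these levels do not order the ligands by their amount of mRNA.

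**Figure D1:**
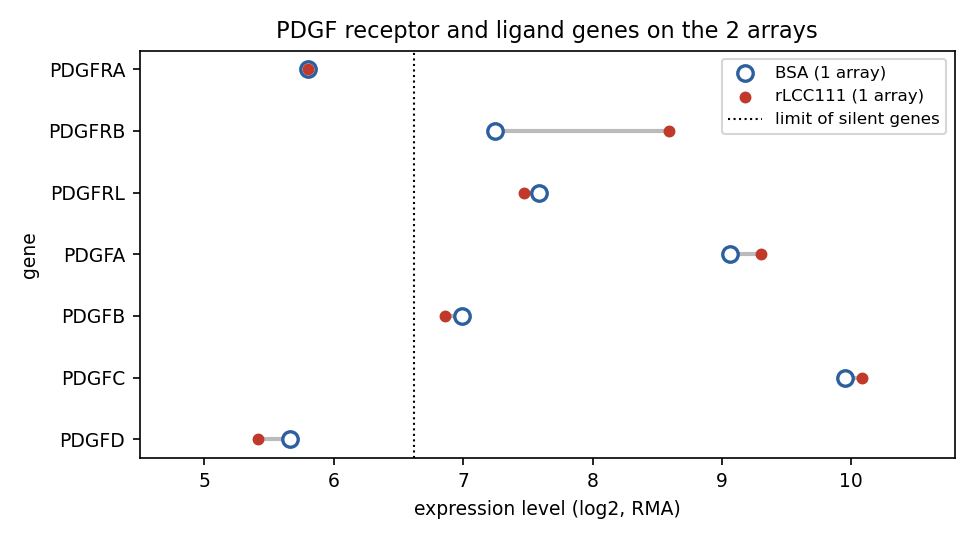
Log2 expression level (horizontal) of the 7 PDGF genes (vertical) on the BSA array (open circles) and the rLCC111 array (filled circles), 1 array per coating, with no error bars because there are no replicates. PDGFRB moves from 7.25 to 8.59, while the other 6 genes differ by 0.25 or less, and PDGFRA and PDGFD lie left of the dotted limit of 6.62.

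By count, 1 of the 7 genes, PDGFRB, reached 2-fold on the higher side and none on the lower, where 0.239% and 0.0869% of all 18417 genes lay. The lower limit of 1.5-fold gave the same counts for the family, with 1.08% of all genes past it on the higher side and 0.543% on the lower. These counts use the values the family was chosen with and are read no further. Differences of 3 members were above 0, 3 below 0 and 1 at 0, and the median of the family was 0.00, as was that of all genes. Of all genes, 46.2% had a difference above 0 and 46.6% below 0.

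**Figure D2:**
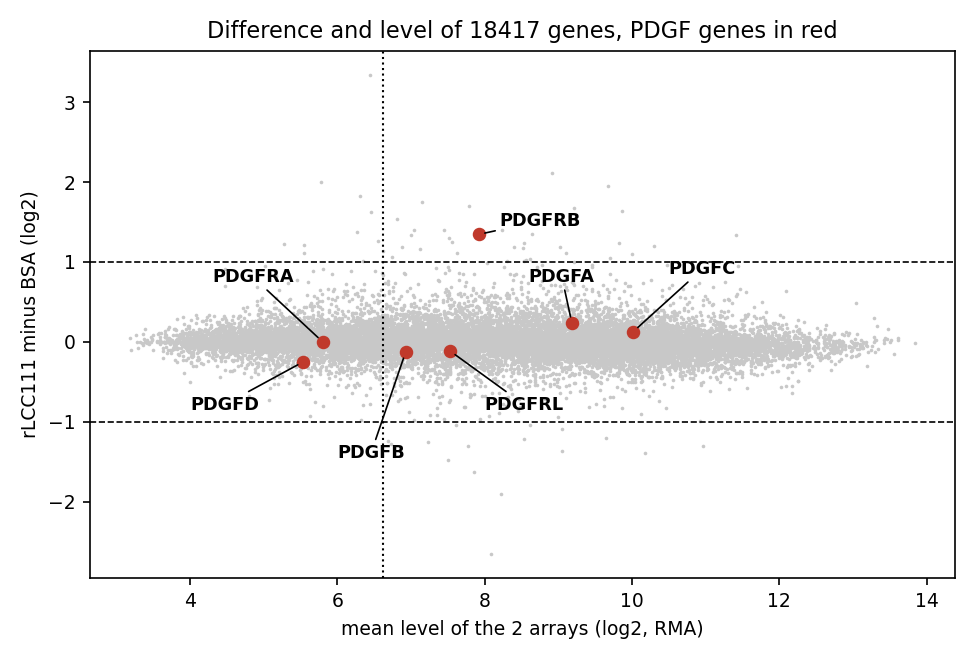
Difference, rLCC111 minus BSA in log2 (vertical), against the mean level of the arrays in log2 (horizontal) for 18417 genes (grey), with the 7 PDGF genes in red; dashed lines mark a 2-fold difference and the dotted line the limit of silent genes. PDGFRB, at a difference of 1.35, lies outside the band of genes of its level, and the other 6 members lie inside it.

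Other scaling of the arrays left PDGFRB at least 2-fold higher. Its difference ran from 1.27 to 1.35 over the deposited values, median centring, removal of a lowess trend and quantile normalization, which corresponds to folds of 2.40 to 2.54. Over the same settings PDGFA stayed between 0.16 and 0.24 and PDGFC between 0.05 and 0.15, while PDGFB stayed between -0.21 and -0.13, PDGFD between -0.33 and -0.25 and PDGFRL between -0.20 and -0.11. PDGFRA, at 0.00 as deposited, was below 0 under median centring, lowess and quantile normalization, with a lowest value of -0.08. Each of the 7 genes has 1 sequence of its own on the array, so another choice of sequence could not change its value. A further sequence, annotated to both EBF1 and PDGFRB, had levels of 6.78 (BSA) and 6.93 (rLCC111), a difference of 0.14. The 2 sequences of the array that name PDGFRB thus differ in what they show. Both levels of the shared sequence were near the limit of silent genes, 6.62, and below the 99th percentile limit, 7.58, so it says little about PDGFRB. A sequence of more than 1 gene was not used for any gene.

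PDGFRB lies beside CSF1R, the receptor of macrophage colony-stimulating factor, and PDGFRA beside KIT, the stem cell factor receptor, since these genes arose by duplication. In the RefSeq order of GRCh38.p14, the nearest protein-coding genes on one side of PDGFRB are CSF1R, HMGXB3 and TIGD6, and their differences were 0.26, 0.37 and -0.34. On the other side are CDX1, SLC6A7 and CAMK2A, at 0.05, 0.01 and -0.13. None of these 6 neighbours was 1.5-fold different, beside 1.08% of all genes on the higher side and 0.543% on the lower. CSF1R, at 6.94 on BSA and 7.20 on rLCC111, was near the limit of silent genes. Of the 6 neighbours of PDGFRA 5 were analysed. LNX1, CHIC2 and GSX2 had differences of -0.06, -0.20 and 0.01, and KIT and KDR had differences of -0.19 and 0.18 at levels below the limit.

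Promoter sequences are shown for both PDGF receptors with a kinase, which differ in what the arrays show, and for LRP1, a co-receptor of PDGFRB described with the pathway. They come from RefSeq (GRCh38.p14), run 5′ to 3′ from 250 bases before the transcription start to 50 after it, and 4 of the 7 PDGF genes had such windows, 8 in all. Capitals mark matches on either strand to a CCAAT box (CCAAT), a GC box (GGGCGG), an AP-1 site (TGANTCA) or a TATA box (TATAAA). The PDGFRB window is chr5:150155796-150156095, minus strand, the PDGFRA windows are chr4:54229043-54229342 and chr4:54233710-54234009, plus strand, and the LRP1 window is chr12:57128233-57128532, plus strand.
PDGFRB: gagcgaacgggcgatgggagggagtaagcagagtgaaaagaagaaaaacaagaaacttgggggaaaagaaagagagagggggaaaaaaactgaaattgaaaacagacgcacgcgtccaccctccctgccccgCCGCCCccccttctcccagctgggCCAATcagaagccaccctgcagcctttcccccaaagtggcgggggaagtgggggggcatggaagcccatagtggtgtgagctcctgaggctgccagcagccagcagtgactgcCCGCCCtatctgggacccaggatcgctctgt
PDGFRA, upstream start: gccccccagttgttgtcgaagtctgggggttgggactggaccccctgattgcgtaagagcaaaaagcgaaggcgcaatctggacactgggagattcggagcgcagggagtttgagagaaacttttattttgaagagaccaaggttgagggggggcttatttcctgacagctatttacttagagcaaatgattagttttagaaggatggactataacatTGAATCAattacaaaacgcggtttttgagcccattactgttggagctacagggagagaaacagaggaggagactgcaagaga
PDGFRA, downstream start: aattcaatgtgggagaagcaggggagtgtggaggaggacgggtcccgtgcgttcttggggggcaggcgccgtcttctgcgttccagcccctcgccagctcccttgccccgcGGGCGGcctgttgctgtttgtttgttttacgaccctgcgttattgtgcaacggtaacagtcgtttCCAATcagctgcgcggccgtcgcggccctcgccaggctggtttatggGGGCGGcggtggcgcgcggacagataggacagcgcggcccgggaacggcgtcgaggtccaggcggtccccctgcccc
LRP1: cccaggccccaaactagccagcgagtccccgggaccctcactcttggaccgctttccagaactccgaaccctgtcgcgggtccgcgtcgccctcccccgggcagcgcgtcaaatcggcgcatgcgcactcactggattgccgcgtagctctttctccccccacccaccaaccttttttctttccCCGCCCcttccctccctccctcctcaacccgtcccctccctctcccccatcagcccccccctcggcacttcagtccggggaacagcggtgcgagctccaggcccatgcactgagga

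The PDGFRB window held 1 CCAAT box, at position -94 from the start, and GC boxes at -118 and 20, in a sequence of 59.3% G and C. The downstream window of PDGFRA held a CCAAT box at -74 and GC boxes at -139 and -27, and its upstream window held an AP-1 site at -32 and none of the other motifs. LRP1 had 1 GC box, at -66. A CCAAT box was present in 34.6% of 35116 RefSeq promoter windows of this length, a GC box in 45%, an AP-1 site in 7.71% and a TATA box in 11.5%. The motifs do not overlap one another in the 4 windows shown, and both PDGFRB and PDGFRA have windows with a CCAAT box and GC boxes. These are matches of letters, and the arrays measured nothing at the promoters. PDGFA had 4 windows and PDGFD 1, each with at least 1 GC box.

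PDGFRB and PDGFRA belong to the receptor tyrosine kinases, of which 53 of 58 listed genes were measured by a sequence of 1 gene. Of these 53, 29 had an array above the limit, beside 12700 of all 18417 genes. PDGFRB had the largest difference of the 53. The 52 others ran from -0.39 to 0.64, with a median of 0.01 and an SD of 0.23, so the gap between PDGFRB and the next receptor, the collagen receptor DDR1, was 0.71. DDR1 had levels of 9.57 (BSA) and 10.21 (rLCC111), or 1.56-fold, and it was the only other receptor kinase at least 1.5-fold different. Thus 2 of 53 lay past this limit on the higher side, beside 1.08% of all genes, and none on the lower, beside 0.543%. PDGFRB enters this count by the difference the family was chosen with, so the count is read no further. FGFR3, IGF1R, EPHB6 and PTK7 came next on the higher side, from 1.499-fold down to 1.40-fold. Of the 53 differences 27 were above 0, 20 below and 6 at 0. MERTK had the largest difference on the lower side, at 7.73 on BSA and 7.34 on rLCC111. The 10 receptor kinases with the highest mean levels included AXL, RYK, MET, EPHA2, DDR2, IGF1R, TIE1, ROR1 and EGFR beside DDR1. Of these 10 differences 4 were above 0 and 6 below, beside 46.2% and 46.6% of all genes. The 4 above 0 were DDR1, IGF1R, ROR1 and RYK. IGF1R was at 10.37 on BSA and 10.93 on rLCC111, or 1.47-fold, and ROR1 and RYK had differences of 0.30 and 0.19. Among the 6 below 0, AXL was at 12.59 on BSA and 12.29 on rLCC111, MET at 11.79 and 11.58, and EGFR at 10.11 and 9.99. Each of these 6 differences was 0.30 or less in size. Within the same structural class as the PDGF receptors, CSF1R was above the limit of silent genes and KIT and FLT3 were below it on both arrays.

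**Figure D3:**
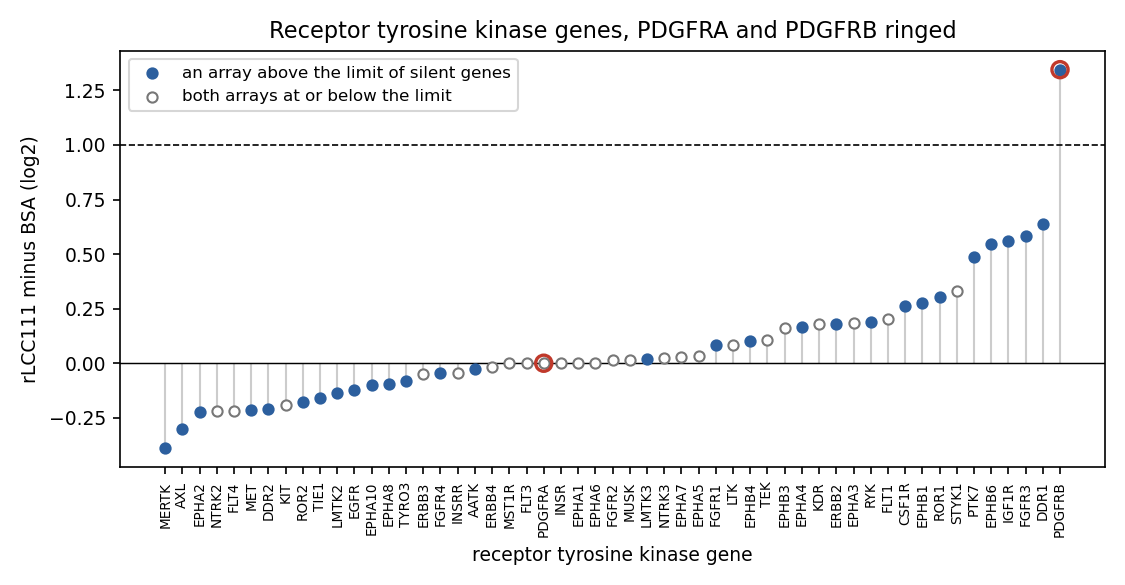
Difference, rLCC111 minus BSA in log2 (vertical), of 53 receptor tyrosine kinase genes in order of size (horizontal), 1 array per coating; filled points have an array above the limit of silent genes, open points have none, red rings mark PDGFRA and PDGFRB, and the dashed line marks 2-fold. PDGFRB, at 1.35, is the only point above the dashed line, and the next, DDR1, is at 0.64.

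PDGF ligands are cut by proteases before they bind. Proprotein convertases such as furin trim the A and B chains inside the cell, tissue plasminogen activator (PLAT) releases the core of PDGF-C, and urokinase (PLAU) and matriptase (ST14) release that of PDGF-D. None of 7 such protease genes was 1.5-fold different, beside 1.08% of all genes on the higher side and 0.543% on the lower. A count of none in so short a list is near the background. Their median difference was 0.14 beside 0.00 for all genes. PLAT had levels of 11.42 (BSA) and 11.00 (rLCC111), with a difference of -0.42. PLAU was at 12.20 and 12.34, and the convertase genes FURIN and PCSK6 had differences of 0.29 and 0.31. ST14 was listed at 6.49 on both arrays, below the limit.

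Of 8 genes of extracellular binders and co-receptors, LRP1 was the only one at least 1.5-fold different, on the higher side, where 1.08% of all genes lay. LRP1 encodes a large endocytic receptor of the LDL receptor family that binds PDGFRB and is phosphorylated upon PDGF-BB binding, and its level was 8.99 on BSA against 9.93 on rLCC111, with a difference of 0.93, or 1.91-fold. THBS1 and SPARC, matrix proteins that bind PDGF, were at 13.13 and 13.22 on BSA and 13.43 and 13.42 on rLCC111. NRP1, a co-receptor, was at 11.95 and 12.11, and ENG, endoglin, was the only one above the limit with a difference below 0, at -0.09. CSPG4, the NG2 proteoglycan of pericytes, A2M and DCN were below the limit on both arrays. The median of this list was 0.14.

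Inside the cell, 23 of 30 listed genes of proteins that act at or downstream of the activated receptor were measured. None of the 23 was 1.5-fold different, beside 1.08% of all genes on the higher side and 0.543% on the lower. Their median difference was 0.04. The largest were those of the docking protein gene GAB1, at 8.67 on BSA and 9.05 on rLCC111, and of the Src family kinase gene FYN, at 9.47 and 9.15. Among 13 genes that restrain the receptor, PTPRE, a tyrosine phosphatase, was at 9.26 (BSA) and 9.96 (rLCC111), or 1.63-fold, and no other was 1.5-fold different, beside 1.08% of all genes past this limit on the higher side and 0.543% on the lower. SOCS3, an inhibitor of cytokine signalling, had the largest difference on the lower side, at 8.28 on BSA and 7.74 on rLCC111. The ubiquitin ligase gene CBLB was at 8.94 and 9.47, while PTPN12, a phosphatase, and SPRY4, a feedback inhibitor, had differences below 0. The median of this list was 0.04, with 7 differences above 0 and 6 below, beside 46.2% and 46.6% of all genes. After median centring that median was -0.04.

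Of 18 genes known to be induced by PDGF, 2 passed 1.5-fold on the higher side, beside 1.08% of all genes, and none on the lower, beside 0.543%. The list had a median of 0.07, with 11 differences above 0 and 7 below, beside 46.2% and 46.6% of all genes. After median centring its median was -0.01. PTGS2, which encodes cyclooxygenase-2, was at 7.004 on BSA and 7.77 on rLCC111, with a difference of 0.77, or 1.70-fold. Its BSA level lay between the limit of silent genes, 6.62, and the 99th percentile limit, 7.58. The size of this fold thus rests on a dim signal on BSA. CCL2, a chemokine first found as a PDGF-induced gene, had levels of 10.51 (BSA) and 11.20 (rLCC111), or 1.62-fold. None of the transcription factor genes on the list was 1.5-fold different. FOS was at 7.21 and 7.18, EGR1 at 8.15 and 8.40, JUN at 10.59 and 10.35 and MYC at 10.69 and 10.33. Serum and many other signals induce all of these genes, and samples were taken 24 h after seeding.

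PDGF-BB lowers contractile genes in smooth muscle cells, and 8 of these were examined. None was 1.5-fold different, beside 1.08% of all genes on the higher side and 0.543% on the lower, and the median was 0.09. Differences of 4 genes were above 0 and of 3 below, beside 46.2% and 46.6% of all genes. ACTA2, smooth muscle actin, had the largest difference, with levels of 9.38 (BSA) and 9.96 (rLCC111), or 1.49-fold, while SMTN was at 10.85 and 10.46. MYH11, LMOD1 and MYOCD, which mark mature smooth muscle, were below the limit on both arrays. Of 11 other markers of pericytes, none was 1.5-fold different, with differences from -0.02 to 0.20 and a median of 0.02. RGS5, KCNJ8, ABCC9, HIGD1B and CSPG4 were below the limit on both arrays, and ANPEP, MCAM, TBX18, DES, NOTCH3 and CD248 were above it. With 1.08% of all genes past 1.5-fold on the higher side and 0.543% on the lower, a count of none in lists of this size is near the background.

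**Figure D4:**
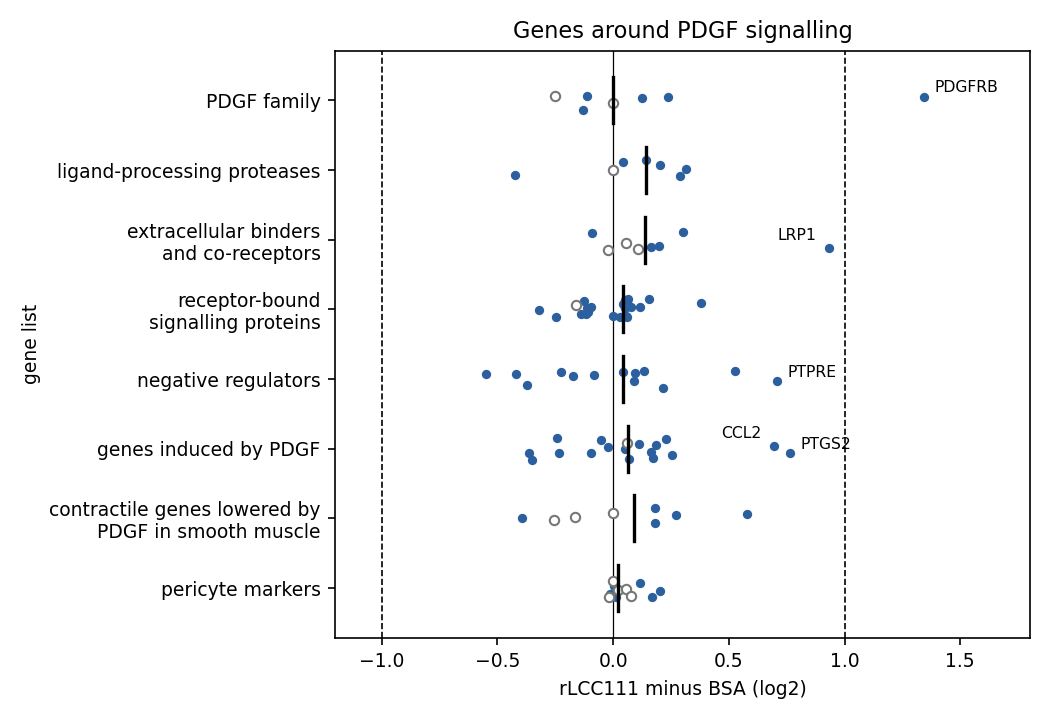
Difference, rLCC111 minus BSA in log2 (horizontal), of each gene in 8 lists around PDGF signalling (vertical; points are spread within a list for visibility); filled points have an array above the limit of silent genes, open points have none, black bars are list medians and dashed lines mark 2-fold. PDGFRB is the only gene past a dashed line, followed by LRP1 at 0.93, and the medians lie between 0.00 and 0.14.

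Over the pair of arrays, the genes whose levels were nearest to those of PDGFRB, by Euclidean distance in log2 units, were ITGB8 at a distance of 0.30, GPNMB at 0.32, PGM2L1 at 0.36, ABCA1 at 0.45 and the microRNA gene MIRLET7A2 at 0.45. ITGB8, the integrin beta 8 chain, was at 7.54 on BSA and 8.52 on rLCC111. ABCA1, a cholesterol exporter, was at 7.07 and 8.18. A pattern over 2 arrays is a pair of numbers, so likeness in it is weak and describes these arrays only.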

How the data were processed

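The data are 1 array per coating of HT1080 cells. Scans had been turned into gene signals by RMA (Affymetrix Expression Console) before deposit, and the deposited values were read as log2 levels, the scale on which the authors' software writes RMA output. Settings, version and build are not given in the sources used here. RMA removes background, brings arrays to a common distribution and sums up the probes of each sequence, and with so few arrays it can give equal values for a gene on both. The methods name limma, which cannot be run with 1 array per coating, since no residual degree of freedom is left.

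Sequences were named from the platform annotation, with symbols updated to RefSeq (GRCh38.p14) through gene identifiers: 19460 had 1 symbol, 1754 several and 12083 none. A gene was given by the 1-symbol sequence with the highest mean level. Of 18417 genes, 12700 had an array above the limit of silent genes. The members and gene lists were chosen with earlier results of these data known. Lists are described by counts and medians, with no test. Named are the members, the 5 genes nearest to PDGFRB, the 3 neighbours on each side of both receptors, the 10 receptor kinases with the highest mean levels and, in each list, genes at least 1.5-fold different and the largest difference in each direction above the limit; other genes of the lists were chosen after their values were seen. Genes of the lists without a 1-symbol sequence were not analysed here. This left 13 of 15 negative regulators, 18 of 20 genes induced by PDGF and 11 of 12 pericyte markers. It also left 7 of 8 epithelial markers and 4 of 5 VEGF and placental growth factor genes. Alternatives were median centring, quantile normalization, subtraction of a lowess curve of difference against level (span 0.2 with 3 robustness iterations), other choices of sequence, filters on level, a 1.5-fold limit and a limit of silent genes at the 99th percentile. The counting of genes past a fold limit was run on simulated data with known changes, as a check of the code only. The simulated noise was smaller than the SD of all differences, 0.20, so the run does not show how often noise passes 2-fold. Python 3.11.15, numpy 2.4.6, pandas 2.3.3, statsmodels 0.14.6 and matplotlib 3.10.9 were used.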

Additional observations from a re-analysis of the deposited data

How the results depend on the processing

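With 1 array per coating, no alternative can test the spread between cultures, and the signal over background limits PDGFRB on BSA, PDGFB, PDGFRA and PDGFD most. PDGFRB was the only member at least 2-fold different as deposited and under each alternative run, the 1.5-fold limit included. Of 165 values recomputed under alternatives 159 moved by less than the limits set for a shift and 6 by more. Of the 159, 14 are member values that another choice of sequence cannot change. Median centring lowers every difference by 0.08, less than the 0.18 set for a shift, so no difference or list median could count as moved under it. Filters on level leave the value of each gene as it is. Much of the count of 159 was thus fixed in advance, and it does not measure robustness. Medians of 7 lists took the opposite sign in 11 of the 165 values, 6 of them after median centring. Genes at least 2-fold higher numbered 26, against 44, when both arrays had to be above the limit of silent genes, and genes at least 2-fold lower numbered 25, against 16, after median centring. At 1.5-fold the counts were 199 higher and 100 lower. The median of the endothelial markers, 0.10 over 9 genes, was -0.18 over the 2 genes left by either filter on level. With the 99th percentile limit 4 members, in place of 5, had an array above the limit, and PDGFB was lost. A value counted as moved when it shifted by 0.18 or more, the SD of the sensory receptor genes, and a count when it changed by over 1.5 times.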

Other observations

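Genes of the ligands most closely related to PDGF were also measured. VEGFA, VEGFB and VEGFC, which signal to endothelial cells, were at 10.63, 9.16 and 10.66 on BSA and at 10.61, 9.32 and 10.82 on rLCC111. PGF, which encodes placental growth factor, was at 8.62 and 8.28, a difference of -0.34. Of the ligands of the KIT, CSF1R and FLT3 receptors, CSF1 was at 10.48 and 10.60, FLT3LG at 8.98 and 9.16 and IL34 at 7.26 and 7.37, while KITLG, stem cell factor, had levels of 6.81 (BSA) and 6.53 (rLCC111), above the limit of silent genes on BSA and below it on rLCC111. None of these 8 genes was 1.5-fold different, beside 1.08% of all genes on the higher side and 0.543% on the lower. That count is near the background.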
